A study of Mus musculus with 6 samples.

Results

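T cells carrying 2 productive TCRα chains were examined among P2+CD4+ T cells, the CD4+ T cells that bind a tetramer of I-Ab and the P2 epitope of the retinal protein IRBP. A cell counted as one when its barcode held at least 1 productive TRB contig (the TCRβ transcript) and at least 2 productive TRA contigs (the TCRα transcript), every contig having V, J and CDR3 annotated. Of 1089 cell barcodes, 970 held productive contigs of both chains (paired cells), and 124 of these carried 2 TRA, while 846 carried exactly 1. The number of cells with 3 or more productive TRA was 0. The cells came from 3 libraries of LN cells of AireGW/+ Lyn-/- mice at 9 wk of age, 1 from mice that had no uveitis and 2 from mice that had it, called dataset 1 and dataset 2. All groups thus shared the AireGW allele, a dominant negative allele of the thymic tolerance gene Aire, and the absence of Lyn, a Src-family kinase. LN were pooled over several mice in each library and the cells were enriched with magnetic beads and sorted, so that each library was treated as 1 sample, and with 2 libraries against 1 no test between the conditions was made.

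During thymic development the TRB locus rearranges first and is closed on one chromosome once the other gives a working chain, whereas the TRA locus goes on rearranging on both chromosomes. On each TRA allele, later rounds join a more upstream V gene to a more downstream J gene and delete what lies between. A mature T cell can therefore transcribe a productive TRA from each allele, and only one of the resulting receptors need be the one that binds a given ligand.

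The 3 libraries held 5302, 7439 and 21408 UMIs in contigs (dataset 1, dataset 2 and without uveitis, the order used throughout), a UMI marking 1 captured RNA molecule. Of the contigs, 38.3%, 6.50% and 34.3% were not called productive, so that dataset 2 was deposited with far fewer such contigs than the others. Libraries shared 1 cell barcode, between dataset 2 and the library without uveitis, and it held 2 TRA in dataset 2, where the share reported below was 8.05% without it. The labelled cell type could be checked only for its TCR: TRG and TRD contigs were found in 0 of the 124 cells with 2 TRA, and the CD4 lineage itself was not assessed. The semi-invariant MAIT rearrangement of TRAV1 with TRAJ33 was found in 0 of their TRA chains. The V and J genes of the iNKT rearrangement, TRAV11 and TRAJ18, were found joined once, in the second TRA of a cell without uveitis. Both rearrangements were sought by gene name only, and the CDR3 of this chain was not compared with that of iNKT cells.

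The first (or larger) chain of a cell is named here by UMIs, then by reads. The CDR3 nucleotide sequences below, read 5′ to 3′ from the contigs, are those of the 5 TRA pairs found in 3 or more cells and of 1 of the 6 pairs found in 2, with the members of a pair on neighbouring lines. Capitals mark bases that match neither the germline V gene nor the germline J gene. They show that the chains of a pair are separate rearrangements with junctions of their own.
TRAV14N-1 with TRAJ52: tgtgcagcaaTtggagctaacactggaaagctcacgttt
TRAV6-7-DV9 with TRAJ47: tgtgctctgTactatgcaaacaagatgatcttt
TRAV3-3 with TRAJ42: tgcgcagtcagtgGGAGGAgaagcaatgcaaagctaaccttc
TRAV4-4-DV10 with TRAJ43: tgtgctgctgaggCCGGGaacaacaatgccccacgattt
TRAV14-1 with TRAJ45: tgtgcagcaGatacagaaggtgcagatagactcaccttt
TRAV4-4-DV10 with TRAJ50: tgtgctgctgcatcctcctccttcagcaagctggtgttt
TRAV13D-3 with TRAJ16: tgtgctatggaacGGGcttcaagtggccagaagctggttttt
TRAV7D-3 with TRAJ9: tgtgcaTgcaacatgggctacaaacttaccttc
TRAV12D-3 with TRAJ23: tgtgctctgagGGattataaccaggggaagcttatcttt
TRAV8D-2 with TRAJ11: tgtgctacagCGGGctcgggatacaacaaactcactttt
TRAV10 with TRAJ30: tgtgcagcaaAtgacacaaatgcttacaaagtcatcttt
TRAV7D-4 with TRAJ11: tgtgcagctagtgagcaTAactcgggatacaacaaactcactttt

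The best supported cell of each library, that with the most UMIs on its second TRA, is shown in the same way, in the order of the libraries and with the first TRA above the second. For the TRAV13-1 chain fewer than 6 bases matched the germline V gene, so its junction was not resolved and no base of it is in capitals.
TRAV8N-2 with TRAJ2: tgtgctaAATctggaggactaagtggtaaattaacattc
TRAV4N-4 with TRAJ12: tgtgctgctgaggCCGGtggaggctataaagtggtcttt
TRAV13-2 with TRAJ50: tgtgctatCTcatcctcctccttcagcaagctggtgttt
TRAV4N-4 with TRAJ57: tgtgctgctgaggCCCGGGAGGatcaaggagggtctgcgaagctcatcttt
TRAV4-4-DV10 with TRAJ33: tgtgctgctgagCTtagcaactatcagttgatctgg
TRAV13-1 with TRAJ35: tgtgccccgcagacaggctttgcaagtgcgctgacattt

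The next best supported cells held fewer UMIs. By UMIs on the second TRA, 4 cells tied for this place in dataset 1 and 3 in dataset 2, and the one with the most reads on that chain is given. In dataset 1 this cell had TRAV5-1 with TRAJ7 on 6 UMIs and TRAV9N-2 with TRAJ12 on 5. In dataset 2 it had TRAV4N-4 with TRAJ11 on 13 and TRAV9-1 with TRAJ22 on 10, and without uveitis TRAV7-3 with TRAJ23 on 41 and TRAV13-1 with TRAJ31 on 30.

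The TRAV11 with TRAJ18 chain, named after it was seen, rested on 12 UMIs in a cell whose first TRA was TRAV14N-1 with TRAJ22 on 20 UMIs and whose TRB used TRBV5 on 43 UMIs. It had 1 base between the germline segments.
TRAV11 with TRAJ18: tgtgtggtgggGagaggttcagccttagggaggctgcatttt

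Cells with 2 productive TRA made up 19 of the 176 paired cells of dataset 1, or 10.8% (exact Clopper-Pearson 95% interval 6.63 to 16.3%). In dataset 2 there were 27 of 324, or 8.33% (5.56 to 11.9%). Without uveitis there were 78 of 470, or 16.6% (13.3 to 20.3%). Averaged over the 2 pools with uveitis, the share was 9.56% ± 1.74 (SD, n = 2). The interval without uveitis did not overlap that of dataset 2 and overlapped that of dataset 1. Clonotypes as called in the deposited contigs, which can differ from those the paper counted, were also counted once each. The share was then 12.2% (7.29 to 18.9%), 13.1% (8.08 to 19.7%) and 16.3% (12.9 to 20.3%), and all 3 intervals overlapped. These intervals, like all those below, cover counting error only and leave out differences between mice and pools.

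The largest clonal lineages, taken as cells that share a TRB, held no cell with 2 TRA. Of the cells whose TRB was found in 10 or more cells of their library, a limit set after the data were seen, 0 of 13, 0 of 116 and 0 of 18 carried 2 TRA. These cells made up 1, 5 and 1 lineages, and since cells of a lineage share their rearrangements no interval is given for them. Among the remaining cells the shares were 11.7% (7.17 to 17.6%), 13.0% (8.73 to 18.3%) and 17.3% (13.9 to 21.1%), and all 3 intervals overlapped. The largest lineage of dataset 2, with TRBV31 and TRBJ1-3, had 37 cells, all with the same TRAV9-4 with TRAJ31 chain and none with a second TRA. Its next lineage, with TRBV12-2 and TRBJ2-3, had 34 cells, all with TRAV9-1 and TRAJ31 and again none with a second TRA. Smaller lineages without uveitis differed. In that with TRBV3 and TRBJ2-2, 7 of 8 cells carried 2 TRA, and in that with TRBV20 and TRBJ1-4, 4 of 4 did. In those with TRBV20 and TRBJ2-2 and with TRBV13-2 and TRBJ1-6, 0 of 7 and 0 of 5 did.

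How many molecules were read from a cell bears on whether a second TRA can be seen. The first TRB, which the definition uses only for its presence, held a median of 12 UMIs in cells with 2 TRA and 11 in cells with 1 TRA of dataset 1. These medians were 11 and 10 in dataset 2, and 17.5 and 16 without uveitis. Where the TRB held 1 to 5 UMIs, 1 of 30, 4 of 72 and 3 of 49 cells had 2 TRA, and where it held 11 to 20 UMIs, 8 of 74, 9 of 90 and 35 of 161 did. In the library without uveitis the share was 6.12% (1.28 to 16.9%) at 1 to 5 UMIs, 11.7% at 6 to 10, 21.7% (15.6 to 28.9%) at 11 to 20 and 17.5% above 20. It was 3.33, 15.6, 10.8 and 11.1% in the same bins of dataset 1, and 5.56, 8.16, 10.0 and 9.38% in dataset 2. The share was thus lowest at 1 to 5 UMIs in each library and did not increase with each further bin in any. Thinning every cell to 10 UMIs, in closed form, left out 26, 71 and 35 shallower cells, and 0 of them had 2 TRA. In the cells kept the share was 12.7, 10.7 and 17.9% before thinning and 11.3, 9.68 and 14.9% after it. A thinned cell can lose a TRA and stay paired, so a lower share after thinning is largely built in.

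**Figure D1:**
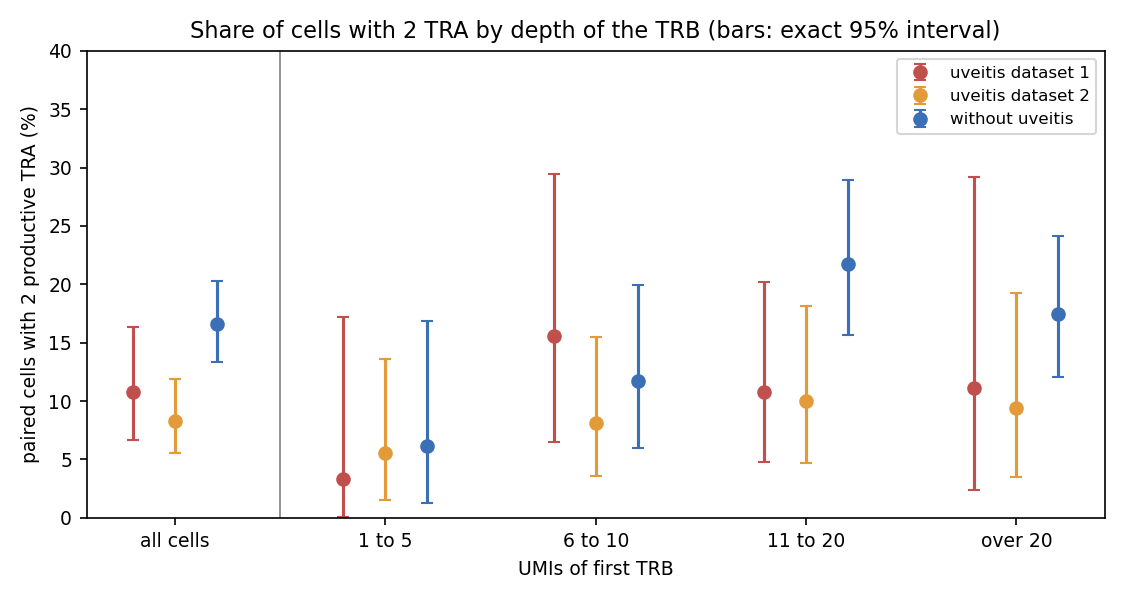
Percentage of paired cells with 2 productive TRA in each library (colours), for all cells and by UMIs of the first TRB, with bars giving exact 95% intervals. Without uveitis the share is lowest, 6.12%, at 1 to 5 UMIs and highest, 21.7%, at 11 to 20 UMIs, while the intervals of the libraries overlap within every bin.

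UMIs were next compared between the 2 TRA of a cell, the first holding at least as many as the second by definition. The first TRA held a median of 6, 7 and 8 UMIs, and the second 3, 4 and 5. The ratio of first to second had a median of 1.50 (1.25 to 2.50) in dataset 1, 1.80 (1.30 to 2.33) in dataset 2 and 1.55 (1.50 to 1.80) without uveitis, with exact order-statistic intervals. Ratios ran from 1 to 4 in both uveitis datasets and from 1 to 4.67 without uveitis, and 123 of 124 cells had a ratio of at most 4. Both chains had equal UMIs in 3, 3 and 7 cells. The only TRA of cells with 1 TRA held a median of 5 (4 to 5), 4 (4 to 5) and 7 (7 to 8) UMIs, between the medians of the second and the first TRA in dataset 1 and without uveitis and level with the second TRA in dataset 2. Both TRA of a cell together held a median of 10, 11 and 13 UMIs.

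No second TRA rested on 1 UMI, and 6, 8 and 13 rested on 2. A single UMI was enough for the only TRA of 58 of 846 cells with 1 TRA (6.86%, 5.25 to 8.77%). It was found for 0 of 123 non-productive TRA, meaning TRA contigs with V and J genes that were not called productive. It was found for 0 of 57 second TRB as well. Second chains on 1 UMI were thus not listed for any kind of chain in these files. The shares of cells with 2 TRA therefore count only second chains read at least at 2 UMIs. The ratios above are bounded by the same floor, since a first TRA above 20 UMIs, which a second TRA under 10% of it would need, was found in only 1, 2 and 9 cells (12 of 124).

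**Figure D2:**
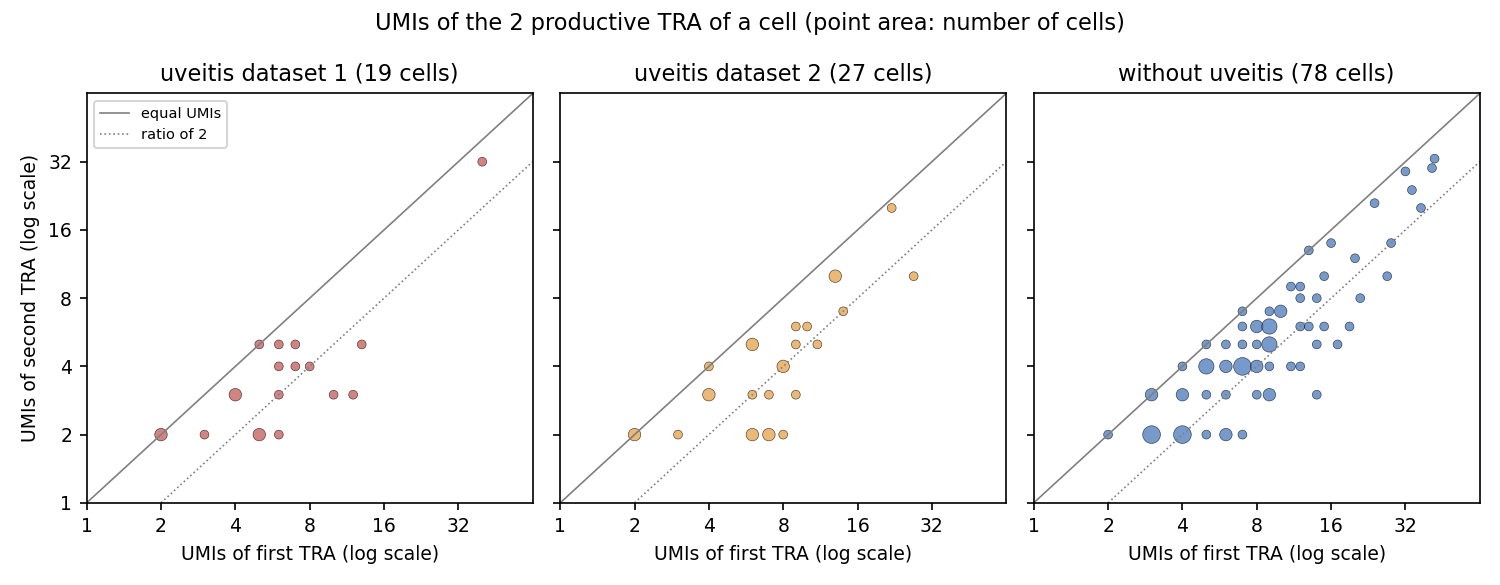
UMIs of the first (x axis) and second (y axis) productive TRA of each cell with 2 TRA on log scales, 1 panel per library. The points lie from the line of equal UMIs to a ratio of 4.67, none lies at 1 UMI, and the best supported cells hold 40 and 32, 22 and 20, and 42 and 33 UMIs.

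A second TRB was rarely found beside a second TRA. More than 1 productive TRB was found in 0 of 19, 1 of 27 and 1 of 78 cells with 2 TRA, and in 10 of 157, 28 of 297 and 17 of 392 cells with 1 TRA. Over the libraries this was 1.61% (0.196 to 5.70%) against 6.50% (4.93 to 8.38%). These intervals overlapped, as did those within each library. No filter for droplets with several cells was applied, and the part of such droplets in either share was not tested. A further TRA contig with both a V and a J gene, which 2 alleles could not give, was found in 2 of 970 paired cells. One of these was a cell of dataset 2 with 2 productive TRA, TRAV6N-6 with TRAJ13 and TRAV9D-1 with TRAJ31, and it was also the only cell with 2 TRA of that dataset that held more than 1 TRB.

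Some cells with 1 productive TRA also held a non-productive TRA as defined above. Whether it came from the other allele, and whether some of these contigs were merely left without a call, was not assessed. A non-productive TRA was seen in 35 of 157, 18 of 297 and 69 of 392 of these cells (22.3, 6.06 and 17.6%). The low share was in the dataset deposited with few contigs not called productive. Of all paired cells with 2 TRA rearrangements, productive or not, both were productive in 19 of 54, 27 of 45 and 78 of 147.

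The TRA locus lies on chromosome 14 of GRCm38, on the forward strand. Its 128 annotated V genes span chr14:52427928-53977678, its 60 J genes chr14:54155005-54218842, and its constant region TRAC chr14:54220521-54224206. J genes are given here by their place in this order, 1 being TRAJ61 and 60 being TRAJ1, nearest to TRAC. The largest pair joined TRAV14N-1 (chr14:53166626-53167178) to TRAJ52 (chr14:54165316-54165381, place 10) and TRAV6-7-DV9 (chr14:53709902-53710419) to TRAJ47 (chr14:54171800-54171856, place 15).

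The J genes of the 2 TRA of a cell lay close together along the locus. Their median distance was 8 places (6 to 17) in dataset 1, 7 (1 to 12) in dataset 2 and 5 (4 to 6) without uveitis. When the first TRA of a cell was set beside the second TRA of every other cell of the library, the median was 15, 16 and 14 places. Of the cells with 2 TRA, 63.2, 59.3 and 82.1% had J genes within 10 places of each other, against 39.8, 34.8 and 39.5% of the pairs from different cells. Spearman's rho between the places of both J genes across cells was 0.60 (n = 19), 0.82 (n = 27) and 0.78 (n = 78), as a description of cells that share clones. Counting each distinct pair of TRA once gave 0.59 (n = 17), 0.78 (n = 19) and 0.72 (n = 66). In base pairs the median distance within a cell was 9.54, 7.32 and 6.48 kb.

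For the V genes the order was looser. Their median distance in gene order was 30, 12 and 19 places within cells, and 35, 33 and 27 between cells, with rho of 0.32, 0.49 and 0.28. The J gene of a non-productive rearrangement lay a median of 5.5 (4 to 11), 8 (5 to 9) and 9 (8 to 12) places from that of the productive TRA of the cell. Without uveitis this interval lay above that of the distance between 2 productive TRA (5, 4 to 6), while in the uveitis datasets the intervals overlapped. Cells of a lineage share their J genes, so these intervals can be too narrow, and the difference was not tested. Both TRA used the same J gene in 1, 1 and 4 cells.

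**Figure D3:**
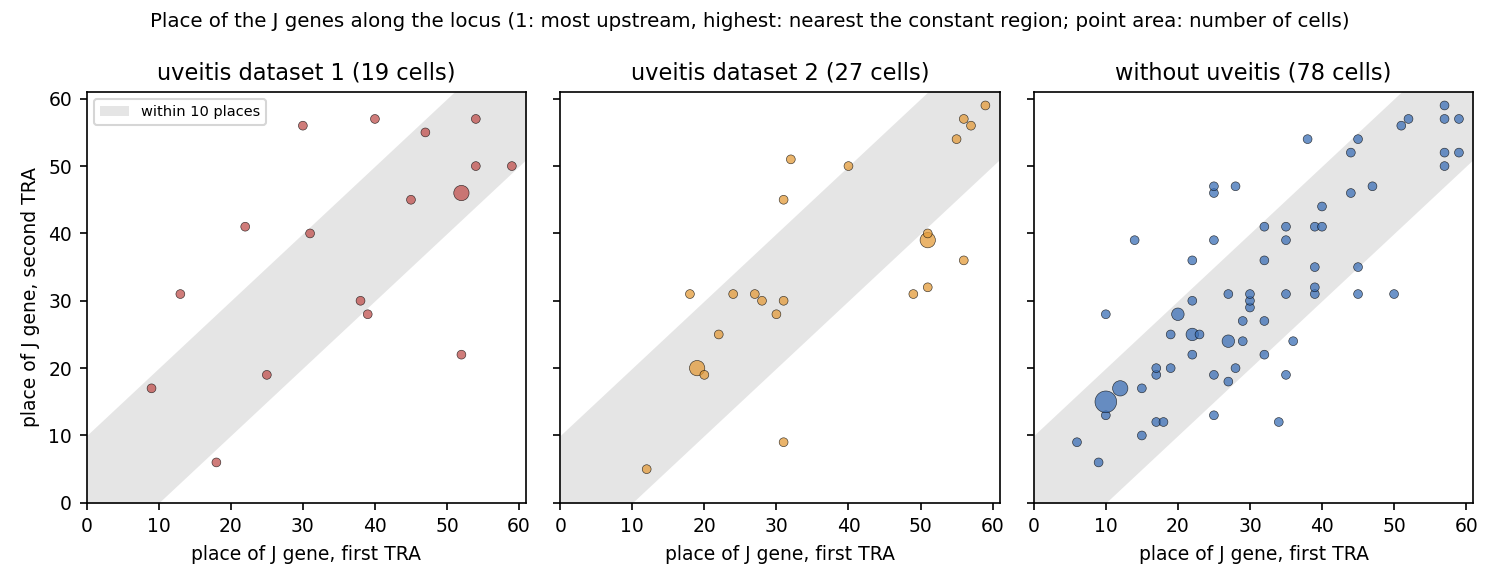
Place of the J gene of the first (x axis) and second (y axis) TRA of each cell along the 60 J genes, from the most upstream to that nearest the constant region, 1 panel per library. Most points follow the diagonal, with 63.2, 59.3 and 82.1% inside the grey band of 10 places.

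The more abundant TRA did not regularly have the J gene further along the locus. The first TRA had the J gene nearer to the constant region in 10 of 18, 14 of 26 and 29 of 74 cells with 2 different J genes (55.6%, 53.8% and 39.2%), and each interval included an even split. The TRA with the more upstream V gene also had the more downstream J gene in 14 of 18, 13 of 26 and 33 of 74 cells (77.8, 50.0 and 44.6%). Since 3 of the 14 cells of dataset 1 held the same pair, each distinct pair was also counted once, which gave 12 of 16 (75%, 47.6 to 92.7%), 7 of 18 (38.9%, 17.3 to 64.3%) and 28 of 62 (45.2%, 32.5 to 58.3%), and each interval included an even split. Median CDR3 lengths of first and second TRA were 39 and 42 bases in dataset 1 and in dataset 2, and 39 and 39 without uveitis.

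The V genes of a pair rarely came from the same family. This was the case in 1 of 124 cells (0.806%, 0.0204 to 4.41%), a cell without uveitis with TRAV7D-5 and TRAV7D-2 on 3 and 2 UMIs. Among first and second TRA taken from different cells of a library it was 9.12% of 7050 pairs, and between 6.43 and 9.83% in each library. Among productive and non-productive TRA of a cell it was 4 of 123 (3.25%, 0.893 to 8.12%). The very same V gene was used by both TRA in 0 of the 124 cells (0 to 2.93%). Among the pairs from different cells it was 2.24%, which lies inside that interval. The pairs from different cells included cells of the same lineage.

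TRAV9 family chains, which led the largest lineages of dataset 2, took a smaller share of the TRA of cells with 2 TRA than of the others. They made up 4 of 38 chains (10.5%), 10 of 54 (18.5%) and 11 of 156 (7.05%) of these cells, and 42 of 157 (26.8%), 144 of 297 (48.5%) and 70 of 392 (17.9%) of the TRA of cells with 1 TRA. Counting each distinct chain once gave 12.1% (3.40 to 28.2%) against 27.4% (19.5 to 36.6%) in dataset 1, 22.2% (10.1 to 39.2%) against 29.3% (21.2 to 38.5%) in dataset 2 and 8.33% (4.23 to 14.4%) against 11.3% (8.13 to 15.2%) without uveitis. The intervals then overlapped in each library. TRAV9 with TRAJ31 was the only TRA of 16 of 157, 99 of 297 and 13 of 392 cells. It was either TRA in 0 of 19, 6 of 27 and 0 of 78 cells with 2. In 4 of those 6 cells of dataset 2 it was the second TRA.

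Gene use by first and second TRA was spread out, and its leading genes were often those of a repeated pair. Where genes tied for the third place, those first by name are given. In dataset 1 the first TRA used TRAV7D-3 in 4 cells, TRAV12D-3 in 2 and TRAV6-3 in 2, and the second TRA used TRAV13D-3 in 3, TRAV9-4 in 2 and 14 others in 1 each. Of the 157 cells with 1 TRA in that dataset, TRAV12D-3 was used by 20, TRAV9-4 by 13, and TRAV7D-3, TRAV13D-3 and TRAV6-3 by 0. These genes were named for leading in cells with 2 TRA, so such counts do not compare gene use between the groups. In dataset 2 the first TRA used TRAV4-4-DV10, TRAV4N-4 and TRAV8D-2 in 3 cells each, and the second TRA used TRAV3-3 in 5, TRAV12D-3 in 3 and TRAV6-7-DV9 in 2. Of the 297 cells with 1 TRA there, TRAV4-4-DV10 was used by 10, TRAV12D-3 by 9, TRAV4N-4 and TRAV8D-2 by 4 each, TRAV6-7-DV9 by 3 and TRAV3-3 by 0. Without uveitis the first TRA used TRAV14N-1 in 9 cells, TRAV4-4-DV10 in 6 and TRAV12-2 in 4, and the second used TRAV6-6 in 7, TRAV13-1 in 6 and TRAV6-7-DV9 in 6.

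Among J genes, TRAJ9 (4 cells) and TRAJ7 (2 cells) led the first TRA of dataset 1, where 13 others were used once, and TRAJ16 (3 cells), TRAJ12 (2 cells) and TRAJ4 (2 cells) the second. In dataset 2 TRAJ11 (5 cells), TRAJ31 (3 cells) and TRAJ43 (3 cells) led the first TRA, and TRAJ31 (4 cells), TRAJ23 (3 cells) and TRAJ42 (3 cells) the second. TRAJ31 (chr14:54187895-54187951, place 31) was used by 110 of the 297 cells of that dataset with 1 TRA. Without uveitis TRAJ52 (8 cells), TRAJ37 (5 cells) and TRAJ40 (5 cells) led the first TRA, and TRAJ31 (6 cells), TRAJ47 (6 cells) and TRAJ21 (4 cells) the second. TRAJ31 was there the J gene of 0 of 78 first TRA, and of 30 of the 392 cells with 1 TRA.

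The TRB of cells with 2 TRA used many V genes. TRBV3 was used by 5 of 19, 5 of 27 and 13 of 78 of these cells, from 2, 4 and 7 distinct TRB, against 25 of 157, 21 of 297 and 33 of 392 cells with 1 TRA. The intervals of these shares overlapped in each library, and 7 of the 13 cells without uveitis came from 1 lineage. TRBV31, the V gene of the largest lineages of dataset 2 and of the library without uveitis, was used by 1, 1 and 0 cells with 2 TRA and by 3, 53 and 44 cells with 1 TRA. The 44 cells without uveitis that used it came from 23 distinct TRB, 18 of these cells from 1 lineage. TRBV20 was used by 10 of 78 cells with 2 TRA without uveitis (12.8%, 6.32 to 22.3%) and by 26 of 392 with 1 (6.63%, 4.38 to 9.57%), with overlapping intervals. The 10 cells came from 6 distinct TRB, 4 of the cells from 1 lineage. In dataset 1 TRBV20 was used by 1 of 19 and 14 of 157 cells (5.26 and 8.92%), and in dataset 2 by 3 of 27 and 34 of 297 (11.1 and 11.4%).

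Pairs of TRA recurred in several cells. The 124 cells held 102 distinct pairs (the same genes and the same CDR3 nucleotides in both TRA), 17, 19 and 66 in the 3 libraries. Of these, 1, 5 and 5 pairs were found in more than 1 cell, together in 3, 13 and 17 cells. In each of the 11 repeated pairs all cells had the same first TRB, and 0 pairs were found in more than 1 library. Of the 33 distinct TRA chains of these cells in dataset 1, 1 was found in any cell of dataset 2, and 1 of the 36 of dataset 2 in any cell of dataset 1. Between either uveitis dataset and the library without uveitis this number was 0.

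The largest pair, TRAV14N-1 with TRAV6-7-DV9 (CDR3 sequences above), was found in 7 cells without uveitis with TRBV3 and TRBJ2-2. Its TRAV14N-1 chain held 9, 15, 11, 9, 34, 32 and 2 UMIs, and its TRAV6-7-DV9 chain held 7, 10, 4, 5, 24, 29 and 2 in the same cells. TRAV14N-1 was thus the larger in 6 cells and equal in 1, and the same 2 cells held the most UMIs of both chains.

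In other pairs the order changed between cells. The pair of TRAV3-3 and TRAV4-4-DV10, in 4 cells of dataset 2 with TRBV5, held 3, 4, 2 and 5 UMIs of the first named chain and 2, 8, 6 and 6 of the other. The pair of TRAV14-1 and TRAV4-4-DV10, in 4 cells without uveitis with TRBV20, held 2, 4, 9 and 7 against 3, 6, 6 and 10 UMIs. The pair of TRAV10 and TRAV7D-4, in 2 cells of dataset 2 with TRBV13-1, held 10 and 13 against 27 and 10 UMIs. The V gene that was larger in one cell was the smaller in another in all 3 of these pairs. In the pair of TRAV13D-3 and TRAV7D-3, in 3 cells of dataset 1 with TRBV3, TRAV7D-3 was larger each time, with 4, 13 and 12 against 3, 5 and 3 UMIs. In the pair of TRAV12D-3 and TRAV8D-2, in 3 cells of dataset 2 with TRBV13-2, TRAV8D-2 held 2, 11 and 6 against 2, 5 and 2 UMIs.

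**Figure D4:**
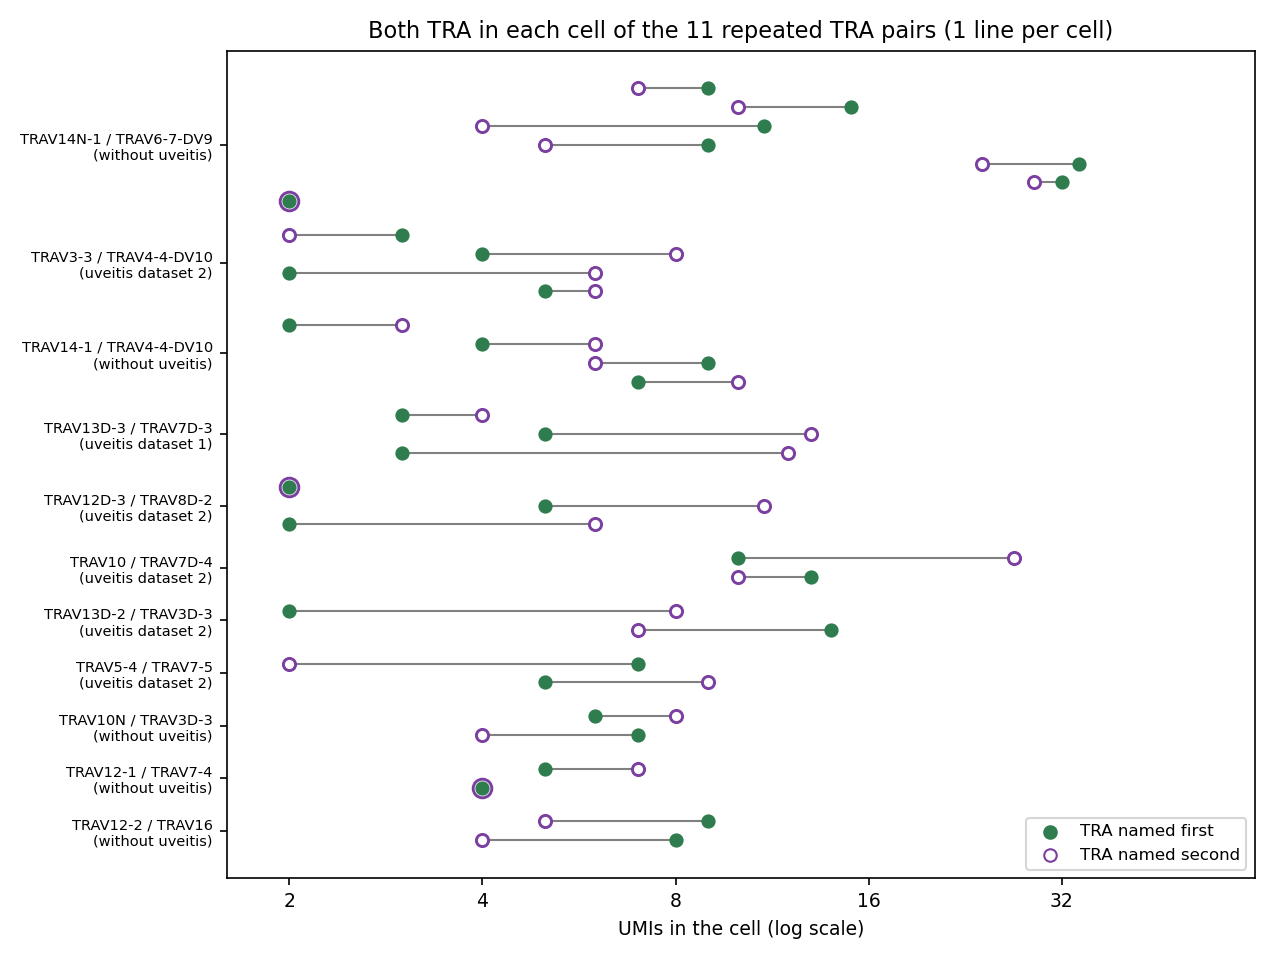
UMIs of both TRA in each of the 33 cells of the 11 repeated pairs on a log scale, 1 line per cell, with filled circles for the chain named first and open circles for the other. The filled circle is to the right or level in all 7 cells of the TRAV14N-1 and TRAV6-7-DV9 pair, while the sides change within several other pairs.

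Cells of a lineage did not always list both of its TRA. Cells with the TRB of a cell with 2 TRA and at least one of its TRA were here taken as a lineage, and 18 lineages had more than 1 cell. This is narrower than sharing a TRB, since cells with that TRB and neither TRA were left out. The TRBV3 and TRBJ2-2 lineage without uveitis, with 8 cells by its TRB, thus counts here with 7. Both TRA were listed in 5 of 7, 17 of 32 and 18 of 19 of their cells, in all 40 of 58 (69.0%, 55.5 to 80.5%). Since each lineage was found through a cell with both, leaving 1 such cell out of each gave 22 of 40 (55.0%, 38.5 to 70.7%). By library this was 2 of 4, 8 of 23 and 12 of 13. Of the 18 cells with 1 TRA, 15 were from dataset 2, where they held a median of 9 TRB UMIs, close to the 10 of the 17 cells with both. Their TRA held a median of 4 UMIs there, against 11 for both TRA together. In dataset 1 the medians of TRB UMIs were 8 in 2 cells with 1 TRA and 12 in 5 with both, and the only such cell without uveitis held 8, against 18 in the 18 with both.

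The chain that was not listed differed between lineages. In the TRBV5 lineage of dataset 2 with TRAV3-3 and TRAV4-4-DV10, 4 cells had both and 3 only TRAV4-4-DV10. In the TRBV19 lineage with TRAV13-1 and TRAV9-4, 1 cell had both and 4 only TRAV13-1. This TRAV9-4 with TRAJ31 chain was also found in 18 cells of dataset 2 with other TRB. In the TRBV20 lineage with TRAV6N-6 and TRAV9D-1, 3 cells had only TRAV6N-6, and the cell with both was the cell with a further TRB and TRA named above.

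**Figure D5:**
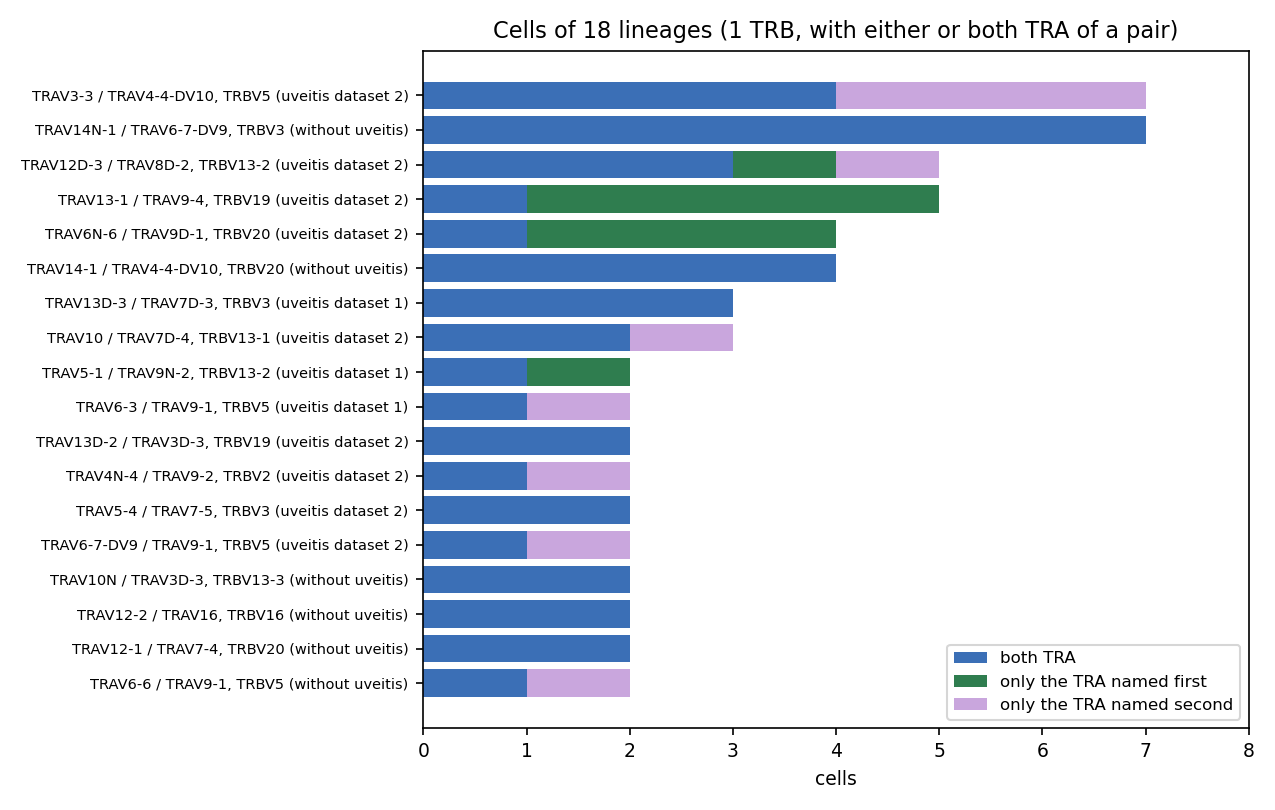
Number of cells of each of the 18 lineages with more than 1 cell, split into cells with both TRA, only the TRA named first and only the TRA named second. Cells with the TRB but neither TRA are left out. All cells shown held both TRA in 5 of the 6 lineages without uveitis, in 2 of 9 in dataset 2 and in 1 of 3 in dataset 1.

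A TRA of a cell with 2 TRA was at times found with another TRB. This held for either chain in 6 of 19 (31.6%), 9 of 27 (33.3%) and 0 of 78 cells, and for the only TRA in 34 of 157 (21.7%), 78 of 297 (26.3%) and 31 of 392 cells (7.91%). The chains concerned included TRAV7D-3 with TRAJ9 in dataset 1, beside TRAV13D-3 in 3 cells and beside TRAV9-4 in 1. In dataset 2 they included TRAV9-1 with TRAJ22, TRAV8D-2 with TRAJ11, TRAV7D-4 with TRAJ11 and TRAV9-4 with TRAJ31. The counts are of cells, and cells of a lineage share their TRA. The 78 cells without uveitis held 66 distinct pairs, and distinct chains were not counted for either group. Cells with 2 TRA also offer 2 chains for a match, so a difference between the groups was not tested.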

How the data were processed

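Single-cell TCR libraries (10x Genomics 5′ kit) of P2+CD4+ T cells were analysed, and the mRNA libraries of the same cells were not used here. The authors assembled reads with Cell Ranger (version 3) against its mouse VDJ reference (mm10, GRCm38). The deposited values are whole counts of reads and UMIs per contig, without normalization, with chain, V gene, J gene, CDR3 and a productive call. Shares carry exact Clopper-Pearson 95% intervals and medians exact order-statistic intervals. Depth was 5302, 7439 and 21408 UMIs. Chains were ranked by UMIs, then reads. Positions come from GENCODE M21 (GRCm38) by gene name, which held all 85 TRAV and 43 TRAJ genes used, and CDR3 ends were matched to its transcripts (at least 6 bases). Named were the 6 repeated pairs with the most cells (the sixth from a tie of 6), the 2 best supported cells per library (ties by reads) and the 3 most used V and J genes per chain (ties by name). Other names were chosen after values were seen. Members and lists were chosen with earlier results of these data known. Scripts were tested on simulated data (Python 3.11.15, pandas 2.3.3, numpy 2.4.6, scipy 1.17.1, matplotlib 3.10.9).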

Additional observations from a re-analysis of the deposited data

Results flagged for a closer look

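Contigs annotated to more than 1 kind of chain were outside the comparisons, and 12 of the 78 cells with 2 TRA without uveitis held one, above the 3 that a count of 0 allows. All 12 joined TRAJ50 to TRBC1 with no V gene. Such mixed contigs of any kind were found in 3 of 19 and 0 of 27 cells with 2 TRA of the uveitis datasets, and in 32 of 157, 3 of 297 and 87 of 392 cells with 1 TRA.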

How the results depend on the processing

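Of 134 recomputed values, 123 were called unchanged. For a single library this meant inside the interval of the original. For the uveitis datasets combined it meant a move of at most the SD between these datasets. Counts of repeated pairs, which have no interval, were judged by a fixed limit on their fold change. Counting each clonotype called in the deposited contigs once gave a share with 2 TRA of 13.1% in dataset 2 and 12.7% in the uveitis datasets combined, against 8.33 and 9.20%. Leaving out cells whose TRB was in 10 or more cells, chosen after seeing the data, gave 13.0 and 12.4%. Reads in place of UMIs gave a median ratio of 2.60 in dataset 2 and 2.32 in the uveitis datasets combined. In these combined, the share of first TRA with the J gene nearer to the constant region (54.5%) was 52.9% by distinct pairs, 55.8% with at least 2 UMIs per contig and 50.0% at a ratio of at least 2. With either uveitis dataset left out, the combined share ranged from 8.33 to 10.8%, the ratio from 1.50 to 1.80, the J distance from 7 to 8 places, the J share from 53.8 to 55.6%, and the repeated pairs from 1 to 5 (6 combined, 1 without dataset 2). No paired analysis was possible because no test was made, and same-numbered TCR and mRNA samples are 1 pool. Each condition had 1 or 2 pools, so nothing here separates uveitis from pool, depth or library.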

Other observations

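The TRAV15 family, whose genes also serve the TRD locus, gave 5 of the 248 TRA of cells with 2 TRA (2.02%) and 1 of the 846 of cells with 1 TRA (0.118%), in 5 different pairs. It was the second TRA in 4 of these cells and the first, with 5 UMIs on each chain, in 1. The family was named after the values were seen. By distinct chain it gave 5 of 201 (2.49%, 0.813 to 5.71%) against 1 of 565 (0.177%, 0.00448 to 0.982%), with overlapping intervals. TRAV11 gave 2 of the 248 chains and 0 of the 846, both without uveitis and both as the second TRA, joined to TRAJ18 and to TRAJ38. By distinct chain TRAV11 gave 2 of 201 and 0 of 565, again with overlapping intervals.

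Productive contigs joining a TRDV gene to a TRAJ gene and TRAC, which were annotated as mixed and so were not counted as TRA, numbered 6 in the library without uveitis. They lay in 3 cells with 1 productive TRA, in 0 cells with 2 and in 3 without a productive TRA.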
